A study of Mus musculus with 9 samples.

Results

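Contractile genes of smooth muscle and myofibroblasts were followed in whole-lung RNA as a set of 10 genes, Acta2, Tagln, Myl9, Cnn1, Myh11, Des, Actg2, Lmod1, Tpm2 and Synpo2. They were picked by gene symbol from the deposited table of 32671 genes, which held all 10, and all 10 passed the filter on low counts that kept 20794 genes for testing. The samples were lungs of wild-type (WT) C57BL/6 mice at day 21, in 3 groups with 3 libraries each. Mice of the LNP group had been challenged with bleomycin, a DNA-damaging drug that provokes lung fibrosis, and had inhaled lipid nanoparticles (mCas9/gSting@DOPS) with Cas9 and a guide named for Sting. The bleomycin group had received only the drug, and the control group saline. Whether the replicates came from different mice is not stated, so p-values here refer to the spread among libraries, which may be technical. Guide and carrier cannot be told apart, since particles lacking the guide were not analysed here. Of the lung's own markers, Sftpc, Sftpb, Ager, Scgb1a1 and Cldn5 were all detected in every group, and their summed level was 12826 to 30406 CPM in LNP, 15736 to 17679 CPM in bleomycin and 40986 to 53211 CPM in control libraries.

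Smooth muscle cells shorten when myosin motors pull on actin filaments, after calcium has activated the kinase that phosphorylates the myosin light chain. In the lung these cells surround airways and larger vessels. Myofibroblasts, fibroblasts that take on part of this apparatus in healing and scarred tissue, are classically recognised by smooth muscle actin, while the smooth muscle myosin heavy chain is regarded as a mark of differentiated smooth muscle. Serum response factor binds CArG boxes in many contractile genes, and its partners, myocardin and the myocardin-related factors, set how strongly these genes are read.

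Among the thin filament genes, Acta2 (ENSMUSG00000035783, chromosome 19, 34218490 to 34232990, minus strand) encodes smooth muscle alpha-actin and Actg2 (ENSMUSG00000059430, chromosome 6, 83489887 to 83513247, minus strand) encodes enteric gamma-actin. Tpm2 (ENSMUSG00000028464, chromosome 4, 43514711 to 43523464, minus strand) encodes beta-tropomyosin, which lies along the filament. Cnn1 (ENSMUSG00000001349, chromosome 9, 22010512 to 22020926, plus strand) encodes calponin, which binds the filament, and Lmod1 (ENSMUSG00000048096, chromosome 1, 135252545 to 135295803, plus strand) encodes leiomodin, a nucleator of actin filaments. Tagln (ENSMUSG00000032085, chromosome 9, 45840917 to 45847356, minus strand) encodes transgelin, an actin-binding protein. The myosin motor is represented by its heavy chain gene Myh11 (ENSMUSG00000018830, chromosome 16, 14012399 to 14109236, minus strand) and its regulatory light chain gene Myl9 (ENSMUSG00000067818, chromosome 2, 156617340 to 156623578, plus strand). Des (ENSMUSG00000026208, chromosome 1, 75336973 to 75345223, plus strand) encodes desmin, the intermediate filament of smooth, cardiac and skeletal muscle. Synpo2 (ENSMUSG00000050315, chromosome 3, 122870168 to 123029745, minus strand) encodes an actin-bundling protein that is also found at the Z-disc of striated muscle. These coordinates are the deposited ones, and their genome build is not stated. Tagln overlaps Pcsk7 on the opposite strand, and whether reads were counted by strand is not stated, so part of its count may belong to Pcsk7. The longest run of bases that the Acta2 transcript shares exactly with that of Actg2 or Acta1 was 29, and with Actg1 56.

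The promoters of Acta2 and Myl9 are shown because they were the members with a CArG box, or a near match to it, in the window searched. RefSeq promoters (build GRCm38.p6, from 250 bases before to 50 after the start) matched 7 of the 10 members, the exceptions being Tagln, Myh11 and Actg2. A strict CArG box lay in 1 of the 7 windows, that of Myl9, and in 535 of all 32851 promoters (1.63%). With 1 G or C allowed in its core, 2 of the 7 held a match, against 9.98% of all promoters. The pattern was searched on both strands, on which it reads the same. The 250 bases before the start are given 5′ to 3′ on the strand of the gene, and capitals mark the matches, the looser pattern included.
Acta2, chr19:34255374-34255623, minus strand: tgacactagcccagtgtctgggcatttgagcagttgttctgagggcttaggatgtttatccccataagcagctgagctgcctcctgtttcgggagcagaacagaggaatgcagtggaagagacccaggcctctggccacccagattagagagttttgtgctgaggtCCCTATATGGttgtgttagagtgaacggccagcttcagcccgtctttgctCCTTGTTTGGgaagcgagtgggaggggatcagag
Myl9, chr2:156775214-156775463, plus strand: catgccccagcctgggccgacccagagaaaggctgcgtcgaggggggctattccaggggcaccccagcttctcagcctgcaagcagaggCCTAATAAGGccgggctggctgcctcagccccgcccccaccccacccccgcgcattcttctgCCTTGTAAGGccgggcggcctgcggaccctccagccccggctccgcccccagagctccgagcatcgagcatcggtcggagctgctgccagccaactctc
In the Acta2 window the first match, CCCTATATGG, began 84 bases before the start. In the Myl9 window the first, CCTAATAAGG, began 161 bases before it. Cnn1, Des, Lmod1, Tpm2 and Synpo2 had no match in this window, which says only that these letters are not there.

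Libraries held 56047830 to 69404903 gene counts, of which the 10 members took 0.116% to 0.366% in LNP, 0.194% to 0.238% in bleomycin and 0.176% to 0.229% in control libraries. LNP replicate 3 stood apart. All 13 skeletal muscle markers were highest in it, and their sum was 10046 CPM there and 10.3 to 63.3 CPM in the other 8 libraries, where Myh4 was at 0. All 8 squamous epithelium markers were highest there too, with a sum of 1767 CPM against 0.929 to 15.0 CPM elsewhere. Skeletal muscle makes desmin and beta-tropomyosin as well, and results that rest on this library are therefore given with and without it. Cardiac muscle markers summed to 227 to 818 CPM in LNP, 120.3 to 415 CPM in bleomycin and 924 to 1338 CPM in control libraries, and their part in the members' levels was not tested. The 818 CPM were those of LNP replicate 3, against 262 and 227 CPM in LNP replicates 1 and 2. Of that sum Myl3 held 229.6, Sln 157 and Csrp3 63.4 CPM, genes that skeletal muscle also expresses. Myh6 had 121.6 CPM there against 62.8 and 58.3 CPM in LNP replicates 1 and 2, and Tnnt2 79.5 against 26.4 and 26.4 CPM. Actc1 had 60.5 CPM against 80.2 and 60.3 CPM, and Myl7 15.8 against 17.1 and 14.6 CPM. The source of these differences was not tested.

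Per length, Acta2 was the highest member in all 3 groups, with 167 ± 60.2 FPKM in LNP, 287 ± 9.44 FPKM in bleomycin and 223 ± 30.4 FPKM in control libraries (SD, n = 3 each). FPKM is the authors' level scaled to transcript length and sequencing depth, and members are ranked against each other on this scale only. In control lung Myl9 and Tagln followed at 139.7 ± 25.5 and 132 ± 19.8 FPKM, then Des at 86.5 ± 11.1 FPKM. Tpm2, Actg2 and Cnn1 lay close together at 48.6 ± 7.58, 47.4 ± 7.13 and 45.0 ± 7.00 FPKM, within 1 SD of each other. Myh11 had 32.5 ± 4.12 FPKM, Lmod1 7.23 ± 0.601 FPKM and Synpo2 3.76 ± 0.350 FPKM. In bleomycin lung Tagln stood second at 182 ± 11.7 FPKM, above Myl9 at 115 ± 18.8 FPKM. Cnn1 and Myh11 had 21.3 ± 6.96 and 16.0 ± 5.29 FPKM there, and Lmod1 and Synpo2 were again lowest at 2.45 ± 0.801 and 1.69 ± 0.904 FPKM. In LNP lung Des with 149 ± 151 FPKM and Tpm2 with 121 ± 153 FPKM ranked next after Acta2, on means whose SD exceeded them.

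**Figure D1:**
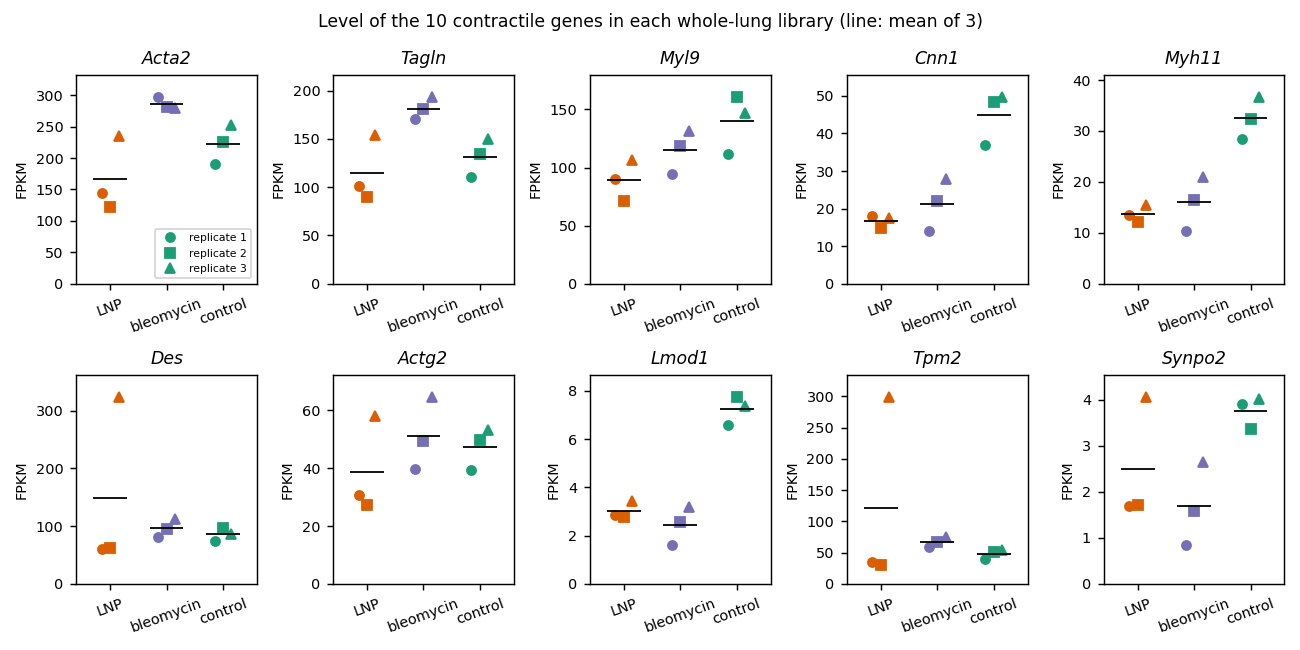
FPKM of each of the 10 genes in the LNP, bleomycin and control libraries, with a symbol per replicate and a line at the mean of 3. Cnn1, Myh11 and Lmod1 of every LNP and bleomycin library lie below every control library, and Des and Tpm2 each have a far point, LNP replicate 3.

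The comparison of bleomycin with control lung asked what the drug had changed by day 21, and the contractile genes did not move together. Lmod1, Cnn1 and Myh11 fell, to 0.352, 0.490 and 0.510 of their control level. Acta2, Tagln and Tpm2 had a higher level in every bleomycin library than in any control library, as did 25.9% of all genes tested. These 3 members did not pass the test over all 9 libraries. By edgeR's quasi-likelihood test 3 of 10 members were lower and 0 higher at an adjusted p under 0.05, where 33.7% of all 20794 genes were called, 18.5% lower and 15.2% higher. At an unadjusted p under 0.05 there were 5 members, a description only, since the share of all genes at that threshold was not computed. DESeq2 called 1 member higher and 4 lower, where it called 8130 genes in both directions together, so neither count has a share beside it. In such bulk samples, fewer cells of a type and less RNA per cell cannot be told apart.

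Lmod1 had 7.60, 11.5 and 13.8 CPM in bleomycin libraries, against 27.6, 34.9 and 30.8 CPM in control libraries (CPM on TMM-scaled library sizes). The groups lay far apart, with a log2 fold change of -1.51 ± 0.22 (SE, adjusted p = 0.0011). Cnn1 had 45.9, 67.9 and 83.3 CPM in bleomycin libraries, against 108, 151 and 144 CPM in control libraries. Every bleomycin library was again below every control library, and the log2 fold change of this calponin gene was -1.03 ± 0.22 (adjusted p = 0.0065). Myh11, the smooth muscle myosin, had 94.9, 142 and 174 CPM in bleomycin libraries, against 230.3, 281 and 294 CPM in control libraries. It did not overlap either and changed by -0.97 ± 0.21 on the log2 scale (adjusted p = 0.0077). Synpo2 had 13.4, 23.4 and 37.9 CPM in bleomycin libraries, against 54.4, 50.3 and 55.5 CPM in control libraries, without overlap but with a wide spread after bleomycin. Its log2 fold change of -1.10 ± 0.41 missed the threshold (adjusted p = 0.064) and passed without LNP replicate 3, at -1.06 ± 0.29 (adjusted p = 0.015).

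Within the bleomycin group 8 of the 10 members, all but Acta2 and Tagln, were lowest in replicate 1 and highest in replicate 3, whether or not they had fallen. The summed cardiac markers had the same order, with 120, 292 and 415 CPM in bleomycin replicates 1, 2 and 3, and their part in it was not tested. Acta2 had the opposite order, with its highest level in replicate 1.

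Acta2 had 783, 698 and 673 CPM in bleomycin libraries, against 448, 564 and 584 CPM in control libraries. The groups did not overlap, yet the 95% interval of the log2 fold change of 0.43 ± 0.24 ran from -0.10 to 0.96 (adjusted p = 0.18). Tagln had 406, 406 and 421 CPM in bleomycin libraries, against 234, 306 and 314 CPM in control libraries. The transgelin gene was nearly level among bleomycin libraries, and its log2 fold change of 0.53 ± 0.21 did not pass (adjusted p = 0.077). Tpm2 had 208, 221 and 241 CPM in bleomycin libraries, against 124, 168 and 169 CPM in control libraries. Its fold change of 0.54 ± 0.72 on the log2 scale (adjusted p = 0.60) came from a fit whose shared estimate of the spread takes in LNP replicate 3. Without that library all of these passed as higher, Acta2 at 0.47 ± 0.13 (adjusted p = 0.017), Tagln at 0.56 ± 0.13 (adjusted p = 0.0058) and Tpm2 at 0.57 ± 0.14 (adjusted p = 0.009). In that fit 3 members were higher and 4 lower, where 42.6% of all 21373 genes were called, 20.5% higher and 22.1% lower. Groups without overlap were found for 7 members, 3 higher and 4 lower, against 55.5% of all genes, 25.9% higher and 29.6% lower.

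Myl9, Actg2 and Des overlapped between bleomycin and control lung. Myl9 averaged 151 ± 18.0 CPM in bleomycin and 177 ± 37.8 CPM in control libraries (SD, n = 3 each), with a 95% interval of the log2 fold change from -0.68 to 0.22. Actg2 averaged 90.03 ± 18.2 CPM in bleomycin and 80.3 ± 13.0 CPM in control libraries, with an interval from -0.47 to 0.80. Des averaged 411 ± 48.2 CPM in bleomycin and 354 ± 59.1 CPM in control libraries, with an interval from -1.03 to 1.46. These intervals came from the fit of all 9 libraries, whose shared estimate of the spread takes in LNP replicate 3. Without that library they ran from -0.58 to 0.19 for Myl9, -0.18 to 0.58 for Actg2 and -0.063 to 0.56 for Des, and none was called. The intervals of either fit do not show equal levels. Over 9 libraries the median log2 fold change of the 10 members was -0.03, beside -0.05 over all genes tested.

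**Figure D2:**
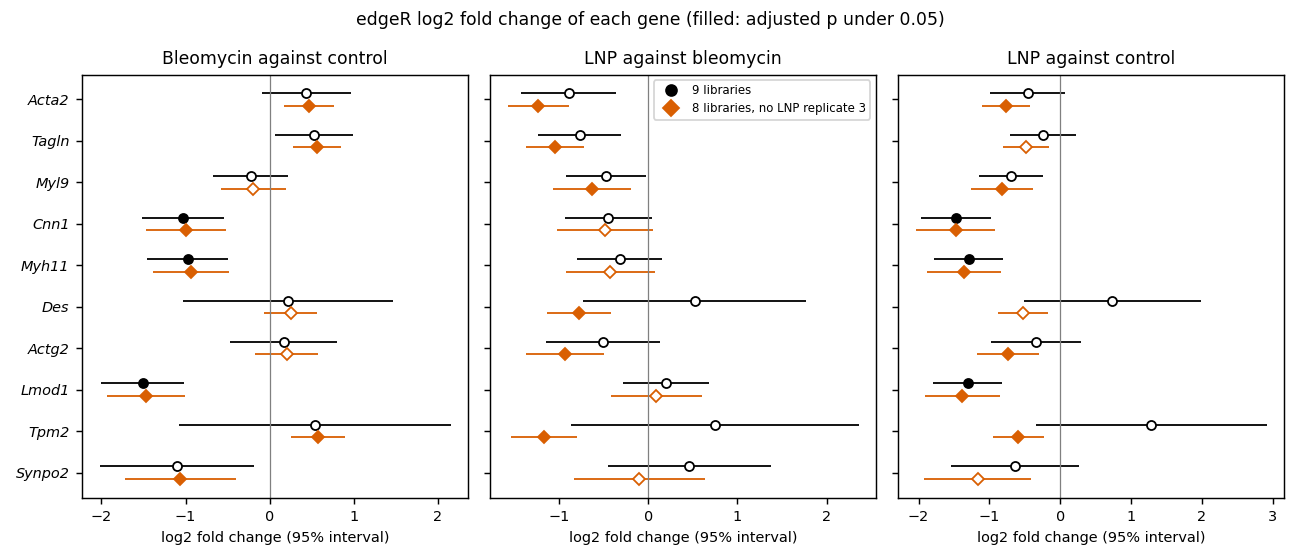
edgeR log2 fold changes with 95% intervals (horizontal axes) of each gene in the 3 comparisons, from all 9 libraries and from 8 libraries without LNP replicate 3. Filled symbols passed an adjusted p of 0.05, and Lmod1, Cnn1 and Myh11 lie below 0 in both comparisons with control in both fits.

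The different courses of Acta2 and Myh11 show in their ratio within a library, which does not depend on the scaling between libraries. Per length, Acta2 was 10.6, 10.05 and 15.3 times Myh11 in LNP, 28.6, 17.1 and 13.4 times in bleomycin and 6.73, 6.95 and 6.87 times in control libraries. Control libraries were almost identical in this ratio, and all 6 bleomycin-challenged libraries lay above them. The mean log2 ratio was 3.56 ± 0.33 in LNP, 4.22 ± 0.56 in bleomycin and 2.78 ± 0.024 in control libraries (SD, n = 3 each). LNP and bleomycin overlapped, since LNP replicate 3 exceeded bleomycin replicate 3. Cnn1 kept a nearly constant proportion to Myh11, with log2 ratios of 0.17 to 0.41 in LNP, 0.41 to 0.43 in bleomycin and 0.38 to 0.58 in control libraries. These ratios are a description and were given no test.

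**Figure D3:**
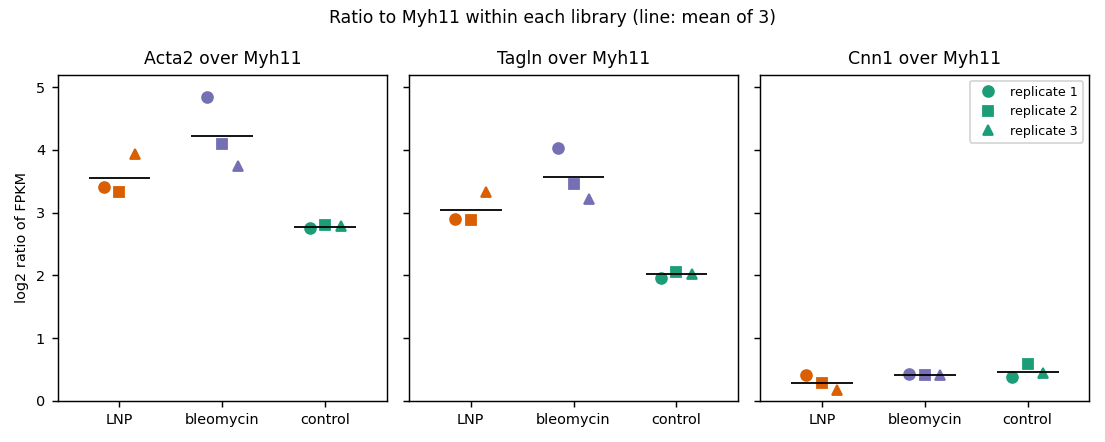
log2 ratio of the FPKM of Acta2, Tagln and Cnn1 to that of Myh11 in each LNP, bleomycin and control library. Acta2 over Myh11 lies between 3.33 and 4.84 in the challenged libraries and between 2.75 and 2.80 in control, while Cnn1 over Myh11 stays between 0.17 and 0.58.

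The comparison of LNP with bleomycin lung asked what differed in challenged mice that had inhaled the particles. Over all 9 libraries 0 of 10 members passed edgeR's test, where 6.16% of all genes did, 4.28% higher and 1.87% lower. At an unadjusted p under 0.05 there were 3 members, Acta2, Tagln and Myl9, all lower, again without a share of all genes to set beside them. DESeq2 called 2 members lower, where it called 3011 genes in both directions together, again without a share of genes called lower. Acta2 had 329.5, 279 and 552 CPM in LNP libraries, against 783, 698 and 673 CPM in bleomycin libraries. Every LNP library was below every bleomycin library, with a log2 fold change of -0.89 ± 0.24 (adjusted p = 0.056). Tagln had 210.2, 186 and 326 CPM in LNP libraries, against 406, 406 and 421 CPM in bleomycin libraries, and a log2 fold change of -0.77 ± 0.21 (adjusted p = 0.06). Of all 10 members only these 2 had groups that did not overlap, against 29.9% of all genes, 15.4% higher and 14.5% lower.

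Without LNP replicate 3, 6 of 10 members were called lower than in bleomycin lung and 0 higher, where 24.7% of all genes were called, 14.0% higher and 10.7% lower. Acta2 averaged 304 ± 35.5 CPM in these LNP libraries (SD, n = 2) and 718 ± 57.5 CPM in bleomycin libraries (n = 3), and fell by 1.23 ± 0.15 on the log2 scale in edgeR (adjusted p = 0.00049). Tpm2 fell by 1.17 ± 0.16 (adjusted p = 0.00097) and Tagln by 1.05 ± 0.15 (adjusted p = 0.00096). These were the genes that had been called higher after bleomycin in the same 8 libraries, and both comparisons use the bleomycin libraries. Actg2 fell by 0.93 ± 0.20 (adjusted p = 0.0075), Des by 0.77 ± 0.16 (adjusted p = 0.007) and Myl9 by 0.63 ± 0.20 (adjusted p = 0.042).

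For the members that had fallen after bleomycin no difference between LNP and bleomycin lung was called with or without that library. Myh11 had 107, 96.2 and 125 CPM in LNP and 94.9, 142 and 174 CPM in bleomycin libraries, with a 95% interval of the log2 fold change from -0.80 to 0.15 over 9 libraries. Lmod1 had 11.8, 11.4 and 14.4 CPM in LNP and 7.60, 11.5 and 13.8 CPM in bleomycin libraries, with an interval from -0.29 to 0.68. Cnn1 had 51.5, 42.2 and 50.7 CPM in LNP and 45.9, 67.9 and 83.3 CPM in bleomycin libraries, with an interval from -0.93 to 0.037. All 3 overlapped between the groups, and the intervals do not show equal levels.

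Against control lung, LNP lung was lower in Cnn1, Myh11 and Lmod1, the same 3 members as in bleomycin lung, whose comparison uses the same control libraries. They made 3 of 10 lower and 0 higher, where 8.04% of all genes were called, 3.08% lower and 4.95% higher. Cnn1 changed by -1.48 ± 0.22 on the log2 scale (adjusted p = 0.0045), Lmod1 by -1.31 ± 0.22 (adjusted p = 0.0071) and Myh11 by -1.29 ± 0.22 (adjusted p = 0.007). Myl9 had 109.8, 85.9 and 132 CPM in LNP libraries, against 138, 213 and 180.3 CPM in control libraries, without overlap, and a log2 fold change of -0.70 ± 0.20 (adjusted p = 0.065). Groups without overlap were found for these 4 members, all lower, against 28.8% of all genes, 13.7% higher and 15.2% lower. Acta2 overlapped between LNP and control libraries, with a 95% interval of the log2 fold change from -0.99 to 0.069.

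Without LNP replicate 3, 7 members were lower than in control lung and 0 higher, where 10.9% of all genes were called, 6.41% higher and 4.51% lower. The members added were Acta2 at -0.77 ± 0.15 (adjusted p = 0.0099), Myl9 at -0.82 ± 0.20 (adjusted p = 0.026), Actg2 at -0.74 ± 0.19 (adjusted p = 0.039) and Tpm2 at -0.59 ± 0.16 (adjusted p = 0.042). Synpo2, Tagln and Des had lower means than in control without passing (adjusted p of 0.056, 0.06 and 0.063).

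Des and Tpm2 turned on LNP replicate 3. Des had 239, 240.1 and 1292 CPM in LNP, 368, 402 and 463 CPM in bleomycin and 300.5, 418 and 345 CPM in control libraries. Tpm2 had 108, 90.2 and 925 CPM in LNP, against 208 to 241 CPM in bleomycin and 124 to 169 CPM in control libraries. For both genes LNP replicate 3 was the highest of all 9 libraries and LNP replicates 1 and 2 were the lowest. Synpo2, with 23.2, 23.2 and 56.5 CPM in LNP libraries, was also highest in that library, but only just above its 50.3 to 55.5 CPM in control libraries. Over 9 libraries the log2 fold changes for LNP against bleomycin lung were 0.52 ± 0.56 for Des, 0.75 ± 0.72 for Tpm2 and 0.46 ± 0.41 for Synpo2 (adjusted p of 0.61, 0.57 and 0.53), and without LNP replicate 3 the first 2 were called lower, as given above, and Synpo2 was at -0.10 ± 0.33 (adjusted p = 0.86).

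The transcripts of Tpm2 set this library apart as well. From the rat gene it is known that smooth muscle and skeletal muscle tropomyosins arise by a choice between alternative internal exons and between alternative last coding exons, and 3 Tpm2 transcripts that differ in these choices held nearly all counts. Each has 855 coding bases in the GENCODE M21 annotation. Tpm2-203 (ENSMUST00000107914) carries the pair of exons used in smooth muscle and fibroblasts, Tpm2-202 (ENSMUST00000107913) the pair used in skeletal muscle, and Tpm2-201 (ENSMUST00000030184) the smooth muscle internal exon with the skeletal last exon. The stretches are shown because they mark which form was counted. They are given 5′ to 3′ on the minus strand of GRCm38, and capitals mark bases that differ within a pair.
Internal exon of Tpm2-203 and Tpm2-201, chr4:43519003-43519078: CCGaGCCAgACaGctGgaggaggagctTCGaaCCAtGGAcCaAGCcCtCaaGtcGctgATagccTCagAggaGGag
Internal exon of Tpm2-202, chr4:43518644-43518719: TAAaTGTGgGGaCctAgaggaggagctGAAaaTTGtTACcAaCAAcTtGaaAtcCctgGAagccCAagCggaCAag
Last coding stretch of Tpm2-203, chr4:43514782-43514861: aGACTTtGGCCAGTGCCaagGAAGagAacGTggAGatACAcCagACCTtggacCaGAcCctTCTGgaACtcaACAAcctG
Last coding stretch of Tpm2-202 and Tpm2-201, chr4:43515924-43516003: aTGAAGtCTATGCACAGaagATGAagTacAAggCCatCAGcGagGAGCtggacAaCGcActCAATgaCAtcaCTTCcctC
The internal exons differed at 35 of 76 bases and the last stretches at 47 of 80. In LNP replicate 3 Tpm2-202 took 52.9% of the Tpm2 counts and Tpm2-203 took 5.32%. In the other 8 libraries Tpm2-202 took 1.124% to 5.66% and Tpm2-203 60.9% to 94.3%. Tpm2-201 took 40.5% in LNP replicate 3 and 0% to 34.3% in the others, and so varied widely within a group. Transcript counts are the authors' estimates of how shared reads divide, and their error is not given.

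**Figure D4:**
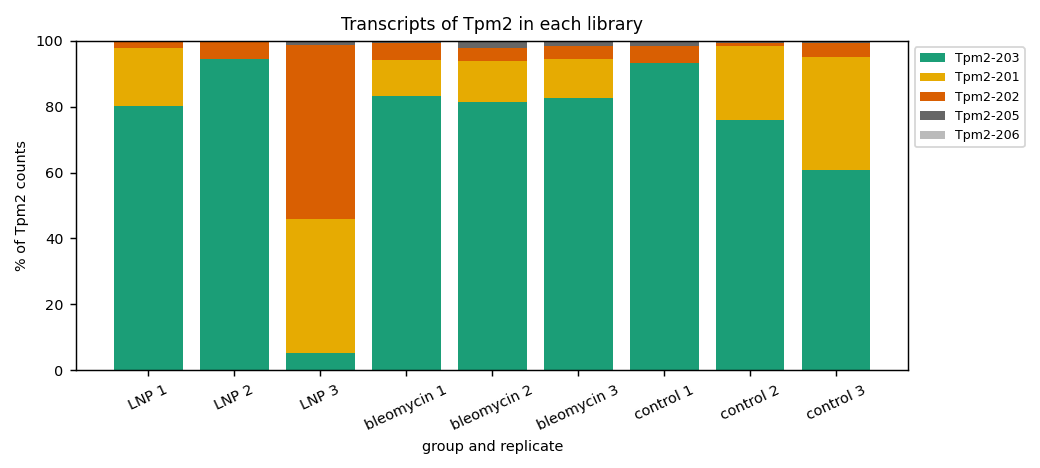
Share of Tpm2 counts (percent) taken by its annotated transcripts in each LNP, bleomycin and control library. Tpm2-203 takes 60.9% to 94.3% in 8 libraries and 5.32% in LNP replicate 3, where Tpm2-202 takes 52.9%.

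Of 35 transcripts of the members, 25 could be tested singly. In bleomycin against control lung 3 were lower and 0 higher, where 6.37% of 46941 transcripts were called. They were transcripts of Lmod1 (-1.47 ± 0.25 on the log2 scale, adjusted p = 0.019), Myh11 (-0.86 ± 0.20, adjusted p = 0.045) and Cnn1 (-0.97 ± 0.23, adjusted p = 0.049). In LNP against control lung the Cnn1 transcript was the only member called (-1.44 ± 0.23, adjusted p = 0.049, beside 0.618% of all transcripts). In LNP against bleomycin lung none was called, beside 0.173%.

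Other genes of the contractile apparatus divided as well. Of 20 such genes 6 rose and 4 fell in bleomycin against control lung, with a median log2 fold change of 0.08, where 15.2% of all genes tested rose and 18.5% fell. Actn1, which encodes an actinin of stress fibres, changed by 1.43 ± 0.19 (adjusted p = 0.00069), and Cald1, which encodes caldesmon, by 1.01 ± 0.15 (adjusted p = 0.0013). Mylk, the gene of the kinase that starts smooth muscle contraction, changed by -0.96 ± 0.15 (adjusted p = 0.0015). The integrin gene Itga8, which is also counted among the resting alveolar fibroblast genes below, changed by -1.87 ± 0.28 (adjusted p = 0.0012). In LNP against bleomycin lung 2 were lower and 0 higher, beside 1.87% and 4.28% of all genes. They were Cald1 at -0.93 ± 0.15 (adjusted p = 0.013) and Actn1 at -0.90 ± 0.19 (adjusted p = 0.025). Cald1 had 175, 183 and 196 CPM in LNP, 384, 357 and 317 CPM in bleomycin and 201, 141 and 184 CPM in control libraries, so LNP lung lay within the range of control lung. In LNP against control lung 5 were lower and 0 higher, beside 3.08% and 4.95% of all genes, with Itga8 at -1.497 ± 0.27, Mylk at -0.80 ± 0.15 and Ppp1r14a at -1.30 ± 0.26 having the smallest p (adjusted p of 0.01, 0.012 and 0.014). Without LNP replicate 3, 8 rose and 7 fell in bleomycin against control lung (20.5% and 22.1% of all genes). For LNP against bleomycin lung 1 was higher and 7 lower in that fit (14.0% and 10.7%). The gene that was higher was Itga8, at 0.65 ± 0.18 (adjusted p = 0.029).

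Of 15 genes of channels, receptors and relaxation signalling, 5 fell and 0 rose after bleomycin, with a median log2 fold change of -0.55, where 18.5% of all genes tested fell and 15.2% rose. Gucy1a1 and Gucy1b1, the subunits of the guanylate cyclase that responds to nitric oxide, fell by 1.71 ± 0.26 and 1.06 ± 0.17 (adjusted p of 0.0014 and 0.0017). Pde5a, which encodes a phosphodiesterase of cyclic GMP, fell by 2.09 ± 0.39 (adjusted p = 0.0035), and Itpr1, a calcium release channel gene, by 0.91 ± 0.19 (adjusted p = 0.0061). In LNP against control lung 4 were lower and 0 higher, beside 3.08% and 4.95% of all genes, which were Gucy1b1 (-0.92 ± 0.17, adjusted p = 0.011), Kcnmb1 (-1.20 ± 0.23, adjusted p = 0.012), Cacna1c (-0.54 ± 0.11, adjusted p = 0.016) and Gucy1a1 (-1.25 ± 0.26, adjusted p = 0.018). Kcnmb1 encodes a potassium channel subunit and Cacna1c the L-type calcium channel. None of the 15 was called between LNP and bleomycin lung, and without LNP replicate 3 there were 3 higher and 0 lower (14.0% and 10.7% of all genes).

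Of 12 regulators of the programme, 2 fell and 0 rose after bleomycin, a share of falls near the 18.5% of all genes tested. Notch3, a receptor gene of mural cells, changed by -0.82 ± 0.19 (adjusted p = 0.0098), and Foxf1, which encodes a factor of lung mesenchyme and endothelium, by -0.61 ± 0.20 (adjusted p = 0.043). Foxf1 was lower in LNP than in control lung as well, by 0.85 ± 0.20 (adjusted p = 0.033). Myocd, the myocardin gene, was scarce, with 0.736, 0.360 and 0.575 CPM in LNP, 1.93, 1.46 and 1.86 CPM in bleomycin and 2.02, 2.33 and 1.44 CPM in control libraries. All LNP libraries lay below all others, by 1.65 ± 0.36 on the log2 scale against bleomycin (adjusted p = 0.03) and by 1.79 ± 0.36 against control (adjusted p = 0.015). Bleomycin and control libraries overlapped in Myocd (-0.14 ± 0.34, adjusted p = 0.78). Without LNP replicate 3 its difference between LNP and bleomycin lung was -1.66 ± 0.40 (adjusted p = 0.013). Srf had 68.0, 63.5 and 62.1 CPM in LNP, 102, 78.5 and 65.1 CPM in bleomycin and 54.4, 69.0 and 50.2 CPM in control libraries, and was called higher after bleomycin only without that library (0.54 ± 0.17, adjusted p = 0.031). Klf4, known as a repressor of smooth muscle genes, had 82.7, 73.5 and 159 CPM in LNP, 123, 156 and 179 CPM in bleomycin and 85.7, 84.8 and 104 CPM in control libraries. It was called only without LNP replicate 3, at 0.78 ± 0.15 in bleomycin against control lung (adjusted p = 0.0025) and -0.97 ± 0.17 in LNP against bleomycin lung (adjusted p = 0.0035). Gata6 passed in LNP against bleomycin lung without that library (-0.44 ± 0.14, adjusted p = 0.045). Mrtfa, Mrtfb, Mef2c, Tead1, Elk1 and Elk3 passed in none of the 3 comparisons in either fit.

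Markers of other cell types moved beside these genes. Of 12 activated fibroblast genes 10 rose and 0 fell after bleomycin (15.2% and 18.5% of all genes), and their summed level was 5228 to 8525 CPM in LNP, 11861 to 12657 CPM in bleomycin and 2112 to 2398 CPM in control libraries. Tnc, Col3a1 and Fn1 were the 3 called in LNP against bleomycin lung, all lower, beside 1.87% of all genes. Without LNP replicate 3, 9 were lower, beside 10.7%. Of 10 pericyte markers 4 rose and 2 fell after bleomycin (15.2% and 18.5% of all genes), the share of falls being near that of all genes. Their summed level was 668 to 793 CPM in LNP, 909.6 to 996 CPM in bleomycin and 669.9 to 830.3 CPM in control libraries. Of these markers, Rgs5 changed by 2.55 ± 0.64 after bleomycin (adjusted p = 0.014) and Cox4i2 by -0.78 ± 0.18 (adjusted p = 0.0087). Between LNP and bleomycin lung 1 pericyte marker was lower in LNP and 0 higher (1.87% and 4.28% of all genes). Without LNP replicate 3, 5 were lower and 1 higher (10.7% and 14.0%). Resting alveolar fibroblast genes, Itga8 included, fell after bleomycin in 7 of 10 cases and cardiac markers in 8 of 12, beside 18.5% of all genes. Between LNP and bleomycin lung 1 resting fibroblast gene was higher in LNP and 0 lower (4.28% and 1.87% of all genes). Without LNP replicate 3, 6 were higher and 1 lower (14.0% and 10.7%). Actc1, the cardiac actin gene, was among the cardiac markers that fell after bleomycin (-2.68 ± 0.40, adjusted p = 0.0012). Actb and Actg1, the cytoskeletal actin genes, were not called in any comparison over 9 libraries, and both were called higher after bleomycin without LNP replicate 3. Acta1, the skeletal actin gene, had 3447 CPM in LNP replicate 3 and at most 2.37 CPM in any other library. The part of these cell types in the members' levels was not tested.

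Over the 9 libraries the members varied in sets, given here as a description to which group differences, shared depth and shared libraries contribute. Myh11 and Cnn1 correlated at r = 0.99, and Myh11 with Lmod1 at 0.94 and with Synpo2 at 0.78 (Pearson, log2 CPM). Acta2 and Tagln correlated at 0.97, but Acta2 and Myh11 at 0.26 and Tagln and Lmod1 at -0.16. Des and Tpm2 correlated at 0.98, and neither above 0.70 with any other member. Over 8 libraries without LNP replicate 3, Tpm2 correlated with Tagln at 0.99 and with Acta2 at 0.96, and Des with Actg2 at 0.96. Myl9 stood between the sets there, at 0.71 with Acta2 and 0.81 with Myh11.

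**Figure D5:**
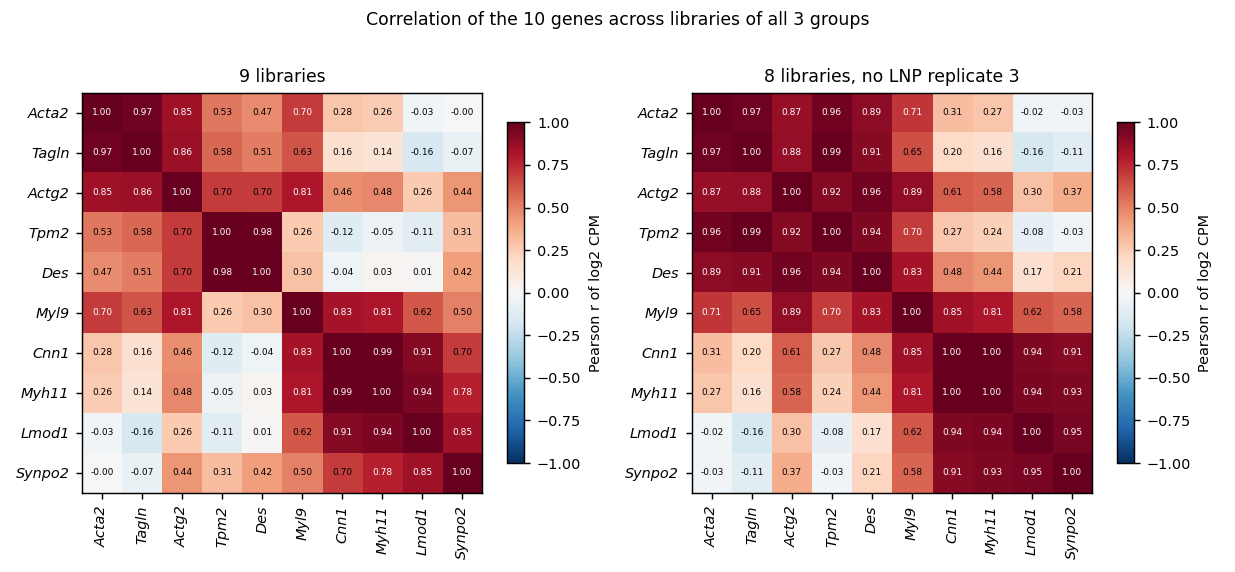
Pearson correlations of log2 CPM between the 10 genes over all 9 libraries and over 8 libraries without LNP replicate 3. Cnn1, Myh11 and Lmod1 correlate at 0.91 or more in both panels, and Acta2 and Tagln at 0.97.

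Of 12389 genes with a mean of at least 5 CPM, those most like Acta2 over the 9 libraries were Stx3, Chka, Mxd4, Rgcc and Pde9a, with r from 0.956 to 0.986. Those most like Myh11 were Rgs12, Fry, Trarg1, Smad7 and Foxo3, with r from 0.964 to 0.979. Rgcc had 95.7, 81.1 and 195 CPM in LNP, 397, 323 and 303 CPM in bleomycin and 172, 159.8 and 182 CPM in control libraries. Smad7 encodes an inhibitor of TGF-beta signalling. It had 60.4, 56.1 and 57.2 CPM in LNP, 62.5, 69.8 and 74.4 CPM in bleomycin and 94.2, 114 and 108 CPM in control libraries. All these genes were picked by likeness over the same libraries. A group order shared with Acta2 or Myh11 therefore follows from the choice and is no separate result.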

How the data were processed

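Poly(A) RNA of whole lung was sequenced, per the labels' protocols. The tools named in the submitters' processing notes are fastp, StringTie and edgeR. No source used here gives the aligner, the genome build or versions. The authors deposited counts of genes and transcripts, which are whole numbers, and gene FPKM. The gene counts of all 10 members equal the sums over their transcripts.

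Comparisons were tested with edgeR 4.0.16 in R 4.3.3 (quasi-likelihood F test, TMM, filterByExpr) in a single fit of all 9 libraries, with Benjamini-Hochberg adjustment over all genes tested and a threshold of 0.05. Every adjusted p is from edgeR. Without LNP replicate 3 the LNP group has 2 libraries and borrows the spread of the others. After ±, log2 fold changes have the SE and levels the SD. Correlations used log2 CPM with a prior count of 2. No libraries were duplicates: chi-square per degree of freedom was 30.2 or more for each pair within a group. The scripts were tested on simulated counts.

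Named were all members, regulators and actins, up to 4 called genes with the smallest p per other list and comparison, and the 5 genes most like Acta2 and Myh11. Members and lists were chosen with earlier results of these data known. The alternatives were DESeq2 1.42.0, RLE size factors, no count filter, fits of the groups compared, a replicate block, limma 3.58.1 on FPKM with a pseudocount of 1 or 0.1 before log2 (mean FPKM of 0.5 or more, or all genes), omission of 25 striated muscle markers, a minimum of 1.5-fold and omission of each library. Library-size scaling was added after seeing the data. Actins were compared by transcript, since protein sequences were not used here.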

Additional observations from a re-analysis of the deposited data

How the results depend on the processing

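Lmod1, Cnn1 and Myh11 were called lower in LNP than in control lung under all 20 alternatives. In bleomycin against control lung Lmod1 was too, and Cnn1 and Myh11 in all but the minimum of 1.5-fold, which left 1 member called lower. Members called higher after bleomycin numbered 1 with DESeq2, 3 in the fit of the groups compared and 0 to 3 with a library left out, and members called lower 3 to 4. Members lower in LNP than in bleomycin lung numbered 2 with DESeq2, 1 by limma on log2(FPKM + 0.1) and 0 to 6 with a library left out, and those lower than in control 3 to 7. Counts of 3 higher, 6 lower and 7 lower with a library left out came only without LNP replicate 3, and the count of 4 without LNP replicate 3 or bleomycin replicate 3.

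Some directions reversed, and the cause was not tested. Without LNP replicate 3, LNP against bleomycin was -0.77 for Des, -1.17 for Tpm2 and -0.10 for Synpo2 on the log2 scale, where leaving out other libraries gave up to 0.90, 1.21 and 0.90. LNP against control was then -0.53 for Des and -0.59 for Tpm2, with up to 1.11 and 1.74 otherwise. Lmod1 in LNP against bleomycin ranged from -0.0062 without bleomycin replicate 1 to 0.40 without bleomycin replicate 3. Actg2 in bleomycin against control ranged from -0.0036 without bleomycin replicate 3 to 0.29 without bleomycin replicate 1.

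For the alternatives, except the fit without LNP replicate 3, calls over all genes were counted in both directions together. Of all genes, 7002 were called in bleomycin against control, 2975 with the minimum fold and 4375 to 9102 with a library left out. In LNP against bleomycin 1280 were called, 3011 with DESeq2, 794 without a count filter, 318 in the fit of the groups compared, 539 by limma without a filter, 187 with the minimum fold and 102 (without bleomycin replicate 2) to 5284 (without LNP replicate 3) with a library left out. In LNP against control 1671 were called, 2937 with DESeq2, 1010 in the fit of the groups compared, 503 with the minimum fold and 717 (without control replicate 1) to 2332 (without LNP replicate 3) with a library left out. Library-size scaling moved the median of all genes to -0.11 in bleomycin against control and 0.16 in LNP against bleomycin, and left the counts of members called as they were.

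With the replicate number as a block, 4 members were lower after bleomycin, 0 were called between LNP and bleomycin and 3 were lower in LNP than in control lung, with 432 genes called between LNP and bleomycin. Deviations of libraries that share a number correlated at -0.018 to 0.040, and those of libraries with different numbers at -0.074 to 0.079. The numbers gave no sign of pairing, but with 3 libraries per group this check cannot show that there is none. In CPM the mean log2 ratio of Acta2 to Myh11 was 1.77 in LNP, 2.43 in bleomycin and 0.98 in control libraries, because FPKM divides by length, and with a library left out it stayed within 3.37 to 3.67, 3.92 to 4.46 and 2.77 to 2.79 on FPKM.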
